A study of Xenopus laevis with 111 samples.

Results

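The libraries described here are those of *X. laevis* tadpoles taken 3, 4, 5 or 6 h after transection of the spinal cord or after a sham operation, chosen by the surgery, hour and series in their labels. They are 10 of the 111 libraries of the series, 5 from transected and 5 from sham animals. In the transected group the skin, the muscle and then the cord were severed at mid-thoracic level under anaesthesia. In the sham group only skin and muscle were opened at that level, so the sham libraries carry the anaesthesia, the wound and the antibiotic saline bath that the transected animals also received. Tadpoles were at NF stage 50, a stage at which the cord regenerates (R-stage). Each library held pooled cords of several animals, dissected from the region caudal to the injury, so a library is a mean over animals and none of its values belongs to a single tadpole. Series S3 gave 1 transected and 1 sham library at each of 3, 4, 5 and 6 h. Series S4, from another batch of animals, gave 1 of each at 6 h. Libraries that shared series and hour, 1 transected and 1 sham, were treated as a pair, which gave 5 pairs. Hours of S3 served as replicates of that batch. The spread behind the p-values was estimated from all 36 pairs of S1 to S6, at all hours, and not from these 5 pairs alone. With 4 of the 5 pairs from S3, the difference itself rests mostly on 1 batch of animals.

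A transection severs the ascending and descending tracts and opens the cord to blood cells and wound fluid. Within hours, injured tissue is known to turn on stress-induced and immediate early genes, and inflammatory cells arrive. In R-stage tadpoles the neural stem and progenitor cells that line the central canal later start to divide and rebuild the cord. A sham operation shares the skin and muscle wound and its systemic signals, so the difference between transected and sham cords addresses the part of the response that depends on damage to the cord itself. *X. laevis* is allotetraploid, and many of its genes have a homeolog of similar sequence.

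The tables name genes by model identifiers that matched none of the 44456 entries in the table of RefSeq genes at hand. They are therefore described by level, direction and course. No function was assigned to them, and the labelled tissue could not be checked against neuronal, glial, muscle, skin or blood markers. The total per library was 15.0 to 30.1 M expected counts in transected pools and 10.5 to 36.5 M in sham pools, where an expected count is the mapping program's estimate of the reads from a gene. A count was present for 33253 to 34438 gene models in transected pools and 32053 to 34748 in sham pools. Spearman correlations between any 2 of the 10 libraries lay between 0.971 and 0.992 across 24968 genes with a mean of at least 1 count per M (CPM). On the first principal component, which held 27.3% of the variance, all 5 transected libraries lay at 0.12 to 0.56 and all 5 sham libraries at -0.41 to -0.19. On the second, which held 16.3%, the transected S4 library stood apart at 0.77, against at most 0.27 in the other 9.

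Transected cords differed from sham cords at 3 to 6 h mainly by genes that were higher. Of 32328 genes tested, 969 were higher and 444 lower in transected cords at an adjusted p under 0.05 (edgeR's quasi-likelihood test with the pair as a block), which is 4.37% of the genes tested in either direction, 3% higher and 1.37% lower. The median log2 difference of the genes called higher was 0.64, a 1.56-fold difference, and that of the genes called lower was -0.41. The median over all genes tested was 0.00. The imbalance grew with the size of the difference. At least 2-fold differences were called for 241 genes higher (0.745% of those tested) and 45 lower (0.139%), at least 4-fold differences for 77 and 5, and at least 8-fold differences for 38 and 2. In bulk tissue, fewer cells of a type and less RNA per cell cannot be told apart, and the arrival of blood or immune cells was not tested. The last gene called had an adjusted p of 0.04996 and a log2 difference of -0.28, and the next, at 0.05007, differed by 0.37. An unadjusted p under 0.05 was reached by 5096 genes.

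The pairs agreed in direction for most called genes. All 5 pairs had the sign of the call in 872 of the 969 genes called higher (90.0%) and in 371 of the 444 called lower (83.6%), where 7.73% and 6.29% of all genes tested were above 0 or below 0 in all 5. These shares use the same pairs as the calls and are a description. In the fit of all 72 libraries without the pair as a block, 392 genes were called, 332 higher and 60 lower. All of them were among the 1413, and that fit also dropped the pairing at all other hours. A fit of the 10 libraries of 3 to 6 h alone gave 1058 calls with the block and 966 without it. In the main fit the S3 pair of 6 h carried the most weight. Leaving it out gave 854 calls, 667 higher and 187 lower.

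**Figure D1:**
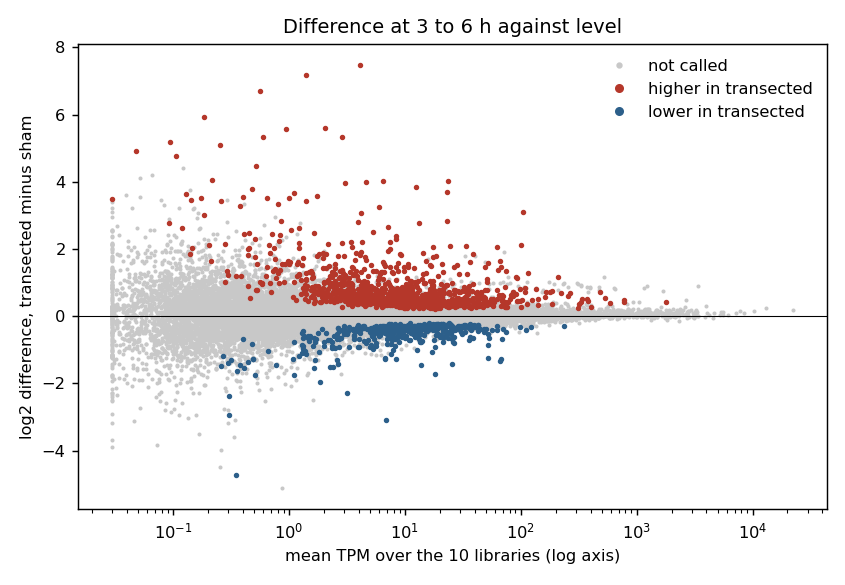
Log2 difference between transected and sham libraries at 3 to 6 h (vertical axis) against the mean TPM over the 10 libraries (log axis, values under 0.03 drawn at 0.03). Each point is 1 of 32328 genes, red for the 969 called higher, blue for the 444 called lower and grey for the rest, and the red points reach farther from 0 than the blue.

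The median level of all called genes lay above that of all genes tested, but that of the genes called with at least 2-fold lay below it. TPM, transcripts per M transcripts, is scaled to transcript length and allows levels of different genes to be set side by side. The median of the mean TPM was 8.24 for genes called higher, 9.41 for genes called lower and 5.87 for all genes tested. It was 2.95 for the 241 genes higher and 1.65 for the 45 lower by at least 2-fold. Among the 10513 genes of 10 to 100 TPM, 3.67% were higher and 1.96% lower, and among the 13902 of 1 to 10 TPM, 3.45% and 1.56%. Among the 1182 genes at 100 TPM or more, 33 were higher and 3 lower. Under 1 TPM, 1.04% of 6731 genes were higher and 0.27% lower. The standard error (SE) given here is the absolute log2 difference divided by the square root of the test's F statistic. Genes with a mean of 0 TPM get a very small value by it and are included. Its median was 0.53 under 1 TPM, against 0.10 at 10 to 100 TPM. So only large differences could be called at low levels: the median of the 70 genes called higher was 2.02.

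The summed level of the genes called higher took a larger part of the transcript pool in every transected library than in its sham partner, as their selection requires. In transected libraries they held 2.61, 2.92, 2.84 and 2.78% of all TPM at 3, 4, 5 and 6 h of S3 and 2.95% in S4, against 1.98, 2.03, 2.01, 1.98 and 1.74% in the sham libraries of the same order. The transected values did not overlap the sham values. The genes called lower held 0.58, 0.56, 0.52 and 0.45% in transected libraries of S3 and 0.56% in that of S4, against 0.74, 0.80, 0.79, 0.80 and 0.69% in the sham libraries. The 241 genes higher by at least 2-fold held 0.30 to 0.42% in transected libraries and 0.12 to 0.15% in sham libraries.

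Some genes were detected in 1 condition only. A count was present in all 5 transected and no sham library for 13 gene models, of which 5 were called higher, and in all 5 sham and no transected library for 2, of which none was called. The highest count of the 13 in any library was 38. At this depth a count of 0 allows up to 3 counts per library, so these genes were not shown to be absent.

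The gene model with the largest positive difference that met the level rule, Xelaev18017925m.g, was near 0 in all 5 sham libraries of 3 to 6 h. Its level was 2.08, 4.89, 12.28 and 14.32 TPM in the transected libraries of S3 at 3, 4, 5 and 6 h and 7.48 TPM in that of S4, against 0.00, 0.08, 0.04 and 0.00 TPM in the sham libraries of S3 and 0.09 TPM in that of S4. Every transected library lay above every sham library, and the 0 h libraries of S3 and S4 were both at 0. This model and the 3 described next were chosen by their difference in these 10 libraries, which favours groups that do not overlap. The counts summed to 613 in transected and 3 in sham libraries, a ratio of 201 per M counts with an exact binomial 95% interval of 68.5 to 978, which covers counting error only. The fitted log2 difference was 7.47 ± 0.63 (SE), with an adjusted p of 5.36e-11. That fit adds a prior count, and DESeq2's Wald test gave a log2 difference of 7.36. In S3 the same gene stood at 0.13 and 0.80 TPM in transected and 0.24 and 0.24 TPM in sham libraries at 1 and 2 h. Over all pairs of 0.5 to 2 h it was already called higher (edgeR, log2 difference 2.00, adjusted p = 0.00188). At 2 h it had 8.39 TPM in the transected and 0.75 TPM in the sham library of S1, and 2.75 and 0.29 TPM in those of S2. In the transected libraries of later hours it stayed high, at a median of 11.85 TPM over 7 to 10 h and 40.44 TPM over 16 to 21 h. The sham medians were 0.09 and 0.06 TPM. These medians differ by series as well as hour: at 10 h the transected library had 11.85 TPM in S4 and 39.73 TPM in S5. All libraries of 16 to 21 h came from S5 or S6. Other sham libraries were not all near 0. At 1.5 h of S1 the level was 6.16 TPM in the transected and 4.08 TPM (29 counts) in the sham library, above the transected library of 3 h, and a sham library of S5 at 17 h had 2.33 TPM. In 25 uninjured libraries it ranged up to 0.62 TPM, with a median of 0.09.

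Xelaev18005828m.g had the next largest positive difference among the genes that met the rule on level and pairs, and rank 5 of all genes tested. Its level was 1.79, 4.71, 5.37 and 5.14 TPM in the transected libraries of S3 at 3, 4, 5 and 6 h and 3.13 TPM in that of S4, against 0.00, 0.09, 0.22 and 0.00 TPM in the sham libraries of S3 and 0.00 TPM in that of S4. The groups did not overlap. Counts summed to 239 in transected and 5 in sham libraries, a ratio of 47.1 with an exact binomial 95% interval of 19.9 to 146, and the fitted log2 difference was 5.59 ± 0.64 (SE, adjusted p = 8.64e-08). Of the 5 windows, this one had the highest median in transected libraries, an order that the choice of the gene by this window favours. Its fitted log2 difference was larger at 7 to 10 h, at 7.26, where all sham libraries had 0 counts. The median in transected libraries of 3 to 6 h was 4.71 TPM, against 2.25 TPM in those of 7 to 10 h, 1.19 TPM in those of 11 to 15 h and 0.91 TPM in those of 16 to 21 h. Transected libraries of 0.5 to 2 h had a median of 0.58 TPM. The windows hold different series, so these medians differ by series as well as hour. Single transected libraries reached 3.19 TPM at 7 to 10 h and 3.38 TPM at 2 h of S1, and so overlapped those of 3 to 6 h. At 1.5 h of S1 the level was 1.92 TPM in the transected and 4.3 TPM in the sham library.

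Xelaev18024188m.g had the largest negative difference of those that met the rule. Its level was 2.00, 1.38, 0.71 and 0.49 TPM in the transected libraries of S3 at 3, 4, 5 and 6 h and 0.81 TPM in that of S4, against 7.28, 5.83, 4.66 and 2.91 TPM in the sham libraries of S3 and 5.66 TPM in that of S4. All sham values lay above all transected values, with a log2 difference of -2.28 ± 0.24 (SE, adjusted p = 2.82e-09). The level at 0 h was 0.56 TPM in S3 and 1.55 TPM in S4, below every sham library of 3 to 6 h. Both lay within the range of the transected libraries. The 0 h libraries of S1 and S2 had 0.90 to 2.82 TPM. Those of S5 and S6 had 3.87 and 3.51 TPM, above the sham library of S3 at 6 h. At 1 and 2 h it stood at 6.73 and 7.78 TPM in transected and 10.52 and 6.87 TPM in sham libraries of S3. Uninjured S7 animals had 9.71, 7.55, 5.27 and 3.58 TPM at 3, 4, 5 and 6 h after 1.87 TPM at 0 h, a range that overlapped the sham libraries and not the transected ones. Its difference between transected and sham libraries fell by 2.03 on the log2 scale between 1 to 2 h and 3 to 6 h of S3 (adjusted p = 0.0184).

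Xelaev18045422m.g had the next largest negative difference of those that met the rule. Its level was 0.12, 0.36, 0.74 and 0.38 TPM in the transected libraries of S3 at 3, 4, 5 and 6 h and 0.95 TPM in that of S4, against 2.14, 1.37, 1.67 and 1.68 TPM in the sham libraries of S3 and 1.75 TPM in that of S4. The groups did not overlap, and the log2 difference was -1.74 ± 0.30 (SE, adjusted p = 1.16e-04). At 1 and 2 h it stood at 0.59 and 0.39 TPM in transected and 0.51 and 0.83 TPM in sham libraries of S3. Its change between 1 to 2 h and 3 to 6 h of S3, -1.60, did not pass the interaction test (adjusted p = 0.756). The 0 h libraries of S3 and S4 stood at 0.22 and 0.29 TPM. Those of S1 and S2 had 0.25 to 0.52 TPM, but those of S5 and S6 had 1.51 and 4.24 TPM, so a low level at 0 h was not shared by all series. Uninjured S7 animals had 1.06, 1.99, 1.99 and 2.29 TPM at 3 to 6 h after 0.25 TPM at 0 h, all above every transected library. This gene and Xelaev18024188m.g held reads shared with other transcripts, so part of their counts may belong to a similar copy.

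**Figure D2:**
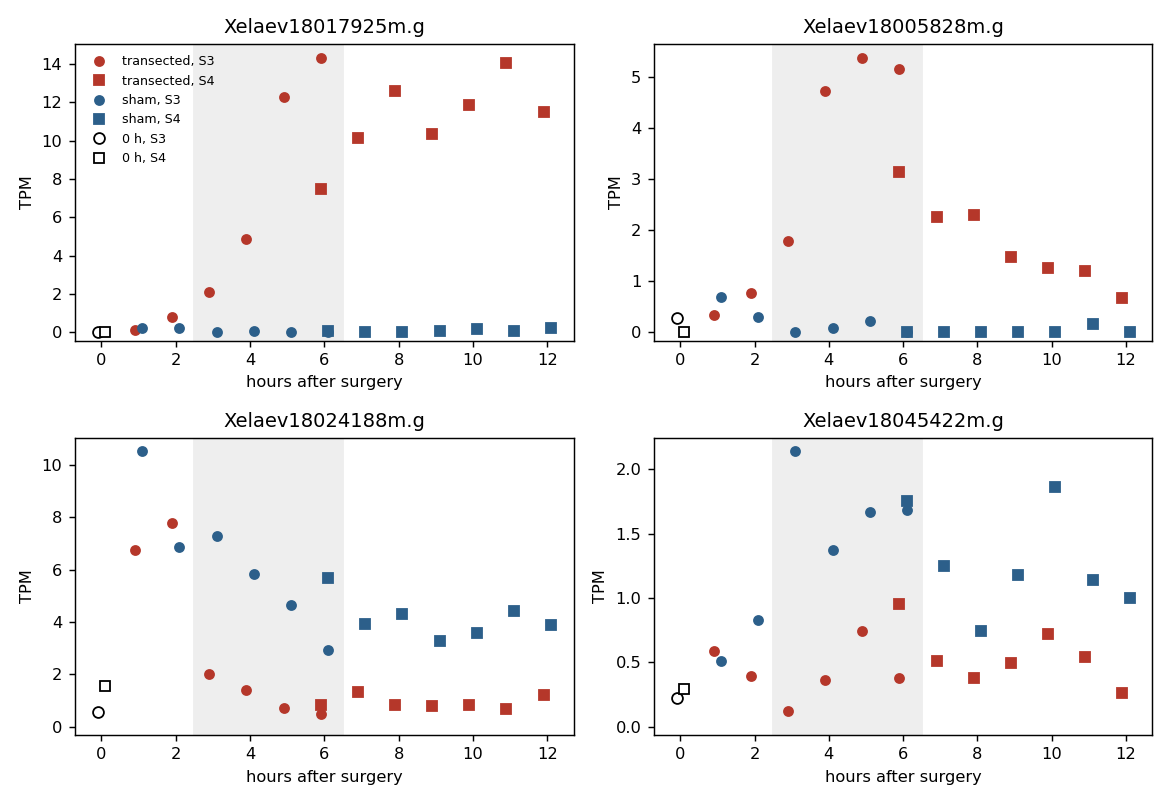
TPM (vertical axes, linear) of the 4 gene models in each library of S3 (circles) and S4 (squares) by hour after surgery, with transected in red, sham in blue and the shared 0 h libraries open. Grey marks 3 to 6 h, where transected and sham points do not overlap in any of the 4 panels, which the choice of the models by these libraries favours.

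Each library was also set against the 0 h library of its own series, which divides the transected minus sham difference between the conditions. The 0 h library is single, so these are values with no test, and the genes were called on transected minus sham, which fixes the order of those conditions. The genes called higher lay above 0 h in transected cords, with a median log2 change of 0.65 in S3 and 0.79 in S4, against 0.02 and 0.18 in sham cords. In uninjured S7 cords of the same hours the median was -0.04. Of the 969, 488 lay at least 0.5 over 0 h in transected cords of S3 and within 0.5 of it in sham cords, 101 lay at least 0.5 over 0 h in both and 314 lay within 0.5 in both. The 241 genes higher by at least 2-fold had medians of 1.75 and 2.06 in transected cords of S3 and S4, against 0.14 and 0.46 in sham cords.

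The genes called lower divided by size. Over all 444, the median change from 0 h was -0.38 in S3 and -0.34 in S4 in transected cords, against 0.04 and 0.03 in sham cords and 0.16 in uninjured cords. Transected cords lay below 0 h for 83.3% of them in S3, where 50.9% of all genes did. The 45 genes lower by at least 2-fold did the reverse. Their median stayed at 0.05 and 0.20 in transected cords of S3 and S4, against 1.36 and 1.66 in sham cords and 0.96 in uninjured cords. Sham cords of S3 lay above 0 h for 36 of the 45, and uninjured cords also for 36, where 47.5 and 47.9% of all genes tested did. In transected cords of S3, 11 of the 45 lay at least 0.5 above 0 h and 20 at least 0.5 below it, against 32 and 3 in sham cords, so the transected median near 0 covers genes on both sides of it. Uninjured animals came from another batch, and time of day and handling cannot be told apart from hours since the start.

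**Figure D3:**
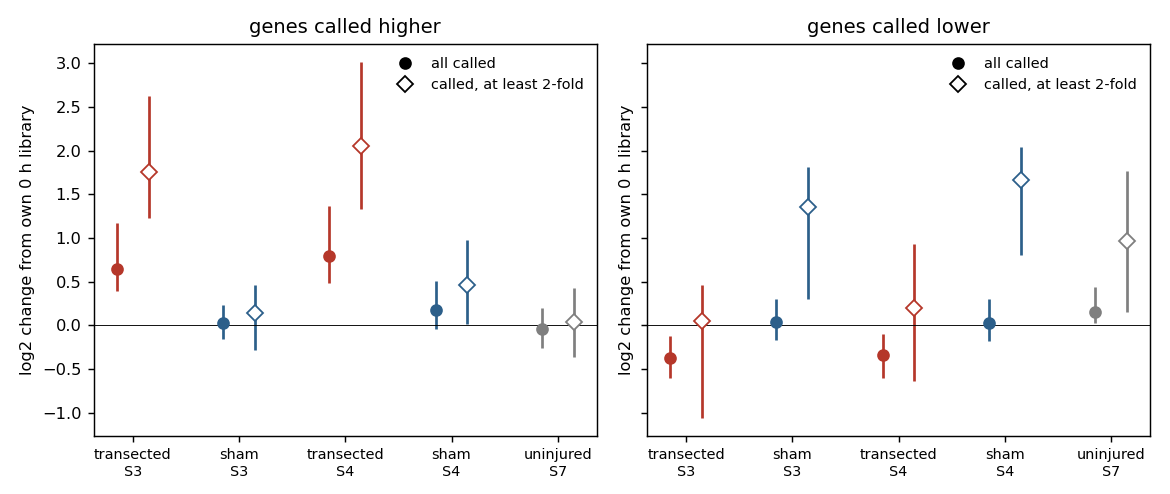
Log2 change from the 0 h library of the same series (vertical axis) in transected and sham libraries of S3 and S4 and uninjured libraries of S7 at 3 to 6 h. Symbols are medians over genes and bars the quartiles, filled for all genes called higher (left panel, 969) or lower (right panel, 444) and open for those of at least 2-fold (241 and 45), and the open symbols of the right panel lie near 0 in transected cords but above 0 in sham and uninjured cords.

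Series S4 came from other animals, so genes called in S3 alone could be read in a pair that had no part in the call. Without the S4 pair, 855 genes were called higher (2.64% of those tested) and 446 lower (1.38%). In the S4 pair of 6 h, 745 of the 855 (87.1%) were above 0, where 48.8% of all genes were, and their median log2 difference was 0.56, against 0.73 in S3. The genes called lower held less well: 288 of the 446 (64.6%) were below 0 in S4, where 50.1% of all genes were, with a median of -0.12, against -0.42 in S3. For genes lower by at least 2-fold in S3, 30 of 34 (88.2%) were below 0, with a median of -0.94. Taken alone against the spread of all pairs, the S4 pair of 6 h gave 102 calls, 85 higher and 17 lower (0.316% of the genes tested). Of these, 101 had the same sign in S3 and 90 were called there in the same direction. A test on 1 pair compares those 2 pools. The S3 and S4 calls set side by side here came from 1 fit with 1 spread per gene, so they are not independent. For scale, the fit without the S4 pair called 2.64% of all genes tested higher and 1.38% lower. The 4 later S4 pairs of 7 to 10 h, again from other animals than S3, had 452 of the 855 called higher (52.9%, where 2.72% of all genes tested were) and 120 of the 446 called lower (26.9%, where 1.34% were), and 1 of the 855 was called lower there.

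The difference in S3 was smaller at 1 and 2 h than at 3 to 6 h in both lists. The pairs of 3 to 6 h were used to choose the lists, so part of this order follows from the selection. The median log2 difference of the 855 genes called higher in S3 was 0.03 at 1 h and 0.31 at 2 h, in pairs not used for the call, and 0.56, 0.75, 0.72 and 0.80 at 3, 4, 5 and 6 h. In S4 it was 0.56, 0.61, 0.52, 0.47 and 0.56 at 6, 7, 8, 9 and 10 h, and 0.30 and 0.36 at 11 and 12 h. At 1 and 2 h the same genes had medians of 0.16 and 0.28 in S1 and 0.19 and 0.43 in S2. The 446 genes called lower had medians of -0.07 and -0.21 at 1 and 2 h, then -0.32, -0.34, -0.39 and -0.63 at 3, 4, 5 and 6 h in S3. In S4 they had -0.12, -0.24, -0.19, -0.14 and -0.40 at 6, 7, 8, 9 and 10 h, and -0.19 and -0.19 at 11 and 12 h. Most of these unused S4 pairs lay no farther from 0 than the S3 pair of 2 h. Both 6 h pairs were at the same hour in different batches, and the S3 pair, which was used for the call, gave the larger median in both lists.

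**Figure D4:**
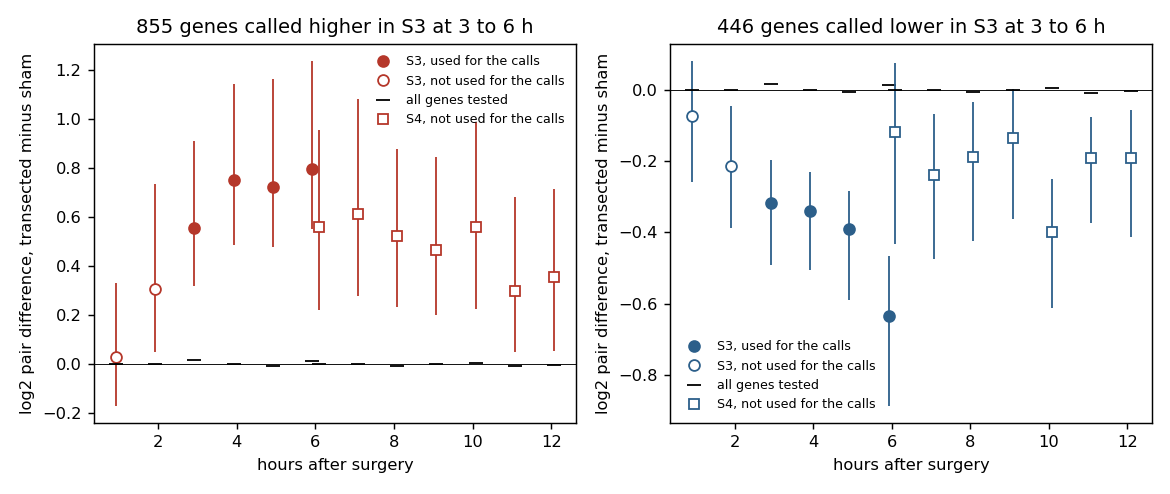
Median log2 difference, transected minus sham, in each pair of S3 (circles) and S4 (squares) by hour after surgery, for the 855 genes called higher (left) and the 446 called lower (right) in S3 at 3 to 6 h. Bars are quartiles over genes, filled symbols are the pairs used for the call and black dashes the median of all genes, and the unused pairs of S4 stay on the side of the call at every hour.

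Gene by gene, little of this course passed a test. In S3, the transected minus sham difference changed between 1 to 2 h and 3 to 6 h for 39 genes (0.121% of the genes tested), 29 more positive and 10 more negative. Of the 29, 27 were among the genes called higher at 3 to 6 h, as were 3% of all genes tested. Of the 10, 8 were among those called lower, as were 1.37%. The S3 pairs of 3 to 6 h entered both this test and those calls, so the overlap follows in part from the selection. The 29 had a median log2 difference of 1.05 at 3 to 6 h, against -0.21 in the pairs of 1 and 2 h, a contrast by which they were chosen. In the S4 pair of 6 h, which the contrast did not use, 28 of them were above 0, where 48.8% of all genes were. The 10, chosen in the same way, had medians of -0.61 in the later and 0.35 in the earlier pairs. In the S4 pair 9 were below 0, where 50.1% of all genes were. On their own, the S3 pairs of 1 and 2 h gave 28 calls, 26 higher and 2 lower (0.0866%). The calls without the S3 pairs of 4, 5 or 6 h fell to 25, 20 and 23, and 58 were made without that of 3 h. A fit of the 12 S3 libraries of 1 to 6 h alone gave 26 calls, 13 more positive and 13 more negative, so the larger number of positive changes did not hold there.

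Within 3 to 6 h, no gene had a slope of the difference per hour that passed (edgeR, 0 of 32328; 1623 had an unadjusted p under 0.05). A single gene passed, more negative with time, without the S4 pair and in a fit of the 10 libraries alone. The median slope was 0.05 per hour in the genes called higher and -0.06 in the genes called lower. Of the 969, 649 (67.0%) had a positive slope, where 48.4% of all genes tested did. Of the 444, 329 (74.1%) had a negative slope, where 51.6% did. The slopes were read from the same 5 pairs as the calls, so these shares are a description. From 6 h to 7 to 10 h of S4, the difference changed for 1 gene, which became more negative (0.00309%). A fit of the 10 S4 libraries alone gave 55, 8 more positive and 47 more negative. Only 1 pair of S4 lay at 6 h, and the spread of its difference was taken from the other pairs.

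The calls of 3 to 6 h overlapped the later window more than the earlier one. The windows share no library, but all were read from 1 fit with 1 spread per gene, so their calls are not independent. Animals of S3 also entered the earlier window and those of S4 the later one. The window of 7 to 10 h had 1268 higher genes (3.92% of those tested) and 681 lower genes (2.11%). Among the 969, 623 were higher in that window too, 64.3% of the first list and 49.1% of the second, and 1 was lower. Of the 444 lower genes, 198 were lower then, 44.6 and 29.1% of the lists, and none was higher. The window of 0.5 to 2 h had 1402 higher genes (4.34%) and 713 lower genes (2.21%). Of the 969, 238 were higher at that time (24.6 and 17.0% of the lists) and 4 lower, and of the 444, 47 were lower (10.6 and 6.59%) and 15 higher. The windows hold different numbers of pairs and batches, so these shares do not measure how far the responses differ.

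Genes called higher fell into 4 courses by their calls in the neighbouring windows. In both neighbours 137 were called higher, with median log2 differences of 0.66 in the earlier window, 0.93 at 3 to 6 h and 0.88 in the later window. Only in the later window 486 were called, with medians of 0.10, 0.60 and 0.66. Only in the earlier window 101 were called, with medians of 0.63, 0.73 and 0.28, and in neither 245, with 0.07, 0.53 and 0.24. A gene absent from a list is not shown to be unchanged. Of the genes called lower, 16 were called lower in both neighbours, 182 in the later only, 31 in the earlier only and 215 in neither.

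Transcript length moved with the genes called lower. Length was read as the expected count per TPM, relative to the median gene of each library, and was available for 98.8% of the genes called higher, 99.8% of those called lower and 92.4% of all genes tested. The median relative length was 1.13 for genes called higher, 1.64 for genes called lower and 0.96 for all genes. When genes were divided into 5 equal classes by length, 0.49% of the shortest class and 3.11% of the longest were lower, against 1.47 and 3.25% higher. The S3 pair of 6 h had the steepest relation, with a median log2 difference of 0.13 in the shortest class and -0.14 in the longest, and the S4 pair of 6 h ran the other way, with -0.04 and 0.03. When each library was centred within 20 classes of length, a choice made after seeing the data, 995 genes were higher and 461 lower. They held 923 of the 969 and 395 of the 444. The median relative length was then 1.22 for genes called higher, farther from that of all genes, and 1.36 for genes called lower, nearer to it. The part of length in the result beyond this centring was not tested. Reads shared with another transcript were present for 87.8% of the genes called higher, 94.6% of those called lower and 82.7% of all genes tested, so homeologs and other close copies may have exchanged counts.

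**Figure D5:**
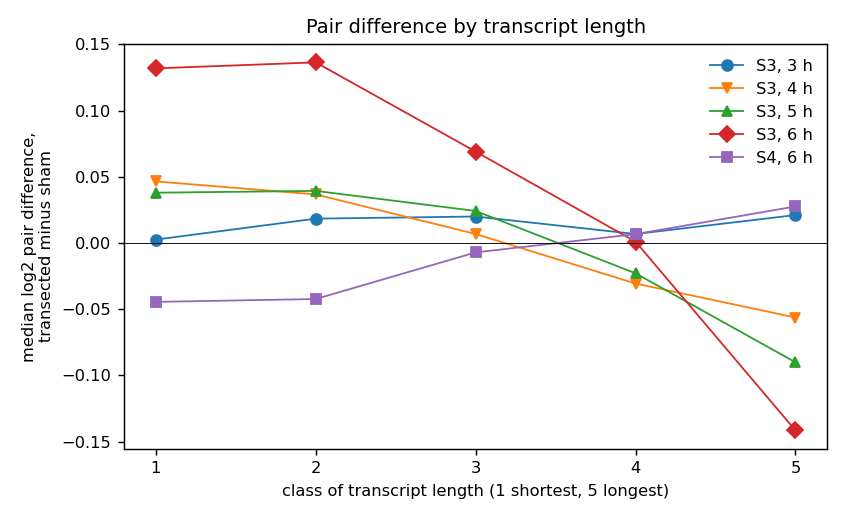
Median log2 difference, transected minus sham (vertical axis), of genes in 5 equal classes of relative transcript length (horizontal axis, 1 shortest and 5 longest) in each of the 5 pairs. The S3 pair of 6 h spans 0.13 to -0.14, and the S4 pair of 6 h, -0.04 to 0.03, runs the other way.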

How the data were processed

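Spinal cord mRNA of transected and sham tadpoles was sequenced as polyA+ libraries. Per the labels and the methods, reads were aligned to the frog's model transcriptome with Bowtie and quantified with RSEM. The authors deposited raw expected counts per gene, together with TPM values per gene that are scaled to transcript length and library total. Expected counts were rounded, and a gene was kept if a condition had at least 5 counts of it at no fewer than 4 time points (32328 of 45099).

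All 72 transected and sham libraries were fitted by edgeR 4.0.16 under R 4.3.3, with TMM factors and the quasi-likelihood test, p-values adjusted by Benjamini-Hochberg and a threshold of 0.05, with the pair as a block and 1 transection effect for each of 5 windows. DESeq2 1.42.0 served as an alternative. The methods place transected and sham animals of a series in the same batch. Deviations from the group means correlated at -0.11 to 0.23 within the 5 pairs and at -0.02 on average between others. Pair differences are in log2 CPM with a prior count of 2. Change from 0 h used log2 of CPM with 0.5 added to counts, centred on the median of genes with at least 20 counts in all libraries.

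No symbols were matched, so gene lists and cell type markers could not be applied. By the rule for that case, the named models are the 2 largest positive and 2 largest negative differences among genes called, with 1 sign in 5 of 5 pairs and a mean of at least 1 CPM in either group. The libraries and lists were chosen with earlier results of these data known. The main fit was tried on simulated data. No outcome of a simulation is given here for the main fit or for the slope, interaction, single-pair and length-centred fits. The simulation is therefore no evidence that these fits are reliable. The Torin1 libraries were not used here.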

Additional observations from a re-analysis of the deposited data

Results flagged for a closer look

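The difference between transected and sham libraries itself differed between time windows of a series for a few genes, by an interaction test. In S3, 39 genes changed between 1 to 2 h and 3 to 6 h. Among the named models, Xelaev18024188m.g did so, with a change of the log2 difference of -2.03. In S4, 1 gene changed between 6 h and 7 to 10 h. In the 21 sets of values examined, no single library of a group of 5 passed the critical value of Dixon's ratio, 0.71. With 5 values that test finds only far outliers, so it does not show that the libraries were alike. The transected S4 library lay apart on the second principal component, as given above.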

How the results depend on the processing

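The 1413 calls became 392 with no replicate block, that is without the pairing of libraries by series and hour, and 286 with a minimum of 2-fold. Leaving out 1 pair gave 854 to 1350, the lowest without the S3 pair of 6 h. The other settings gave 966 to 1540 calls (DESeq2's Wald test the most, the 10 libraries alone with no replicate block the fewest), and 1058 with the block in those 10. Higher calls were 68.6% of all, against 84.7% with no replicate block and 78.4% in the 10 libraries with it. No gene of the 1413 changed sign under any setting that tested it, and 325 of them, 279 higher and 46 lower, were called under all 13 settings other than the fold minimum. The slope per hour had 0 calls, against 1 in the 10 libraries alone and 1 without the S4 pair. The 39 calls of the S3 change ranged from 20 to 58 without 1 pair, and the 12 S3 libraries alone gave 26, 13 in each direction. The 1 call of the S4 change became 55 in the 10 S4 libraries alone. The cause was not tested. The 4 named models kept direction and call in all 51 alternatives tested, and Xelaev18005828m.g missed the filter of 1 CPM in 5 libraries. Gene list medians were not run, since no symbols were matched.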
